A study of Rattus norvegicus with 6 samples.

Results

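The transforming growth factor beta (TGF-beta) and bone morphogenetic protein (BMP) pathway was measured here at the level of its transcripts in the kidney inner medulla of control and diabetic rats. Its members were taken by gene name from the deposited table: every row whose name begins as a Tgfb, Bmp, Smad, Gdf, Inhb, Acvr1, Acvr2 or Ltbp gene followed by a number, an r for receptor or, for Inhb, a subunit letter, together with Ctgf, Cyr61, Nog, Grem1 and Fst. This gave 49 of the 27321 features of the table, and 48 of them are described here. These 48 comprised 21 ligands, 1 latent TGF-beta binding protein, 10 receptors, 7 Smads, 4 secreted inhibitors and target genes, and 5 rows that match the name pattern but have another role. The name Grem1 matched no row, and Bmp6, Bmpr2 and Ltbp4 were not analysed here.

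Tissue for the libraries came from the terminal part of the inner medulla (IM tip) of male Sprague-Dawley rats aged 3 months. The 3 STZ rats had received streptozotocin, a toxin of the insulin-producing beta cells, by tail vein at 62.5 mg/kg, and the 3 control rats had received the vehicle; all were killed 15 days later. No other agent or allele distinguished the groups. A bulk library of this tissue holds collecting duct, thin limb, vessel and interstitial cells together, so fewer cells of a type and less RNA per cell cannot be told apart.

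Ligands of this family are secreted as dimers, and TGF-beta itself is stored in an inactive form in the matrix by latent TGF-beta binding proteins. An active ligand joins type I and type II receptor kinases, which phosphorylate receptor Smads: Smad2 and Smad3 for TGF-beta and activins, Smad1, Smad5 and Smad9 for BMPs. In the kidney TGF-beta is best known for driving matrix deposition in diabetic nephropathy, whereas Bmp7 is known as its antifibrotic counterpart and is made by collecting duct epithelium.

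Between 3412311 and 5575171 reads per library lay on features, and values are normalized counts, that is, reads over a size factor common to the whole library. The weight of 1 read ran from 0.763 to 1.11 normalized counts. Where 3 values are given for a group, they follow replicates 1, 2 and 3. A library with no read of a gene still allows up to 3 reads, or between 2.29 and 3.34 normalized counts, a floor that covers counting error only. The 835 olfactory receptor genes, which serve as a measure of background, had a 95th percentile of 2.05, 6.33 and 10.02 normalized counts among control libraries and of 1.86, 5.93 and 9.03 among STZ libraries. The background was thus lowest in control replicate 1 and STZ replicate 1. By the column headers, control and STZ libraries shared no sequencing lane, which means that lane and condition cannot be told apart. Collecting duct markers, Aqp2 among them, summed to between 32773 and 54600 normalized counts in control and between 42665 and 81715 in STZ libraries, as the labelled tissue should show.

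No member of the pathway differed between STZ and control rats at the threshold used. Of the 48 members, 28 had a mean of at least 5 normalized counts and were tested with limma on log2(normalized count + 1), and 0 of them had an adjusted p under 0.05, against 2.1% of all 13486 features tested. At an unadjusted p under 0.05 there was 1 member, Tgfb3, against 14.7% of all features. On the recovered whole reads, edgeR called 0 of the 28 and DESeq2 0 of the 20 for which it gave an adjusted p, while calling 2.13% and 4.43% of all features. The control and STZ values did not overlap for 2 members, Tgfb3 and Bmp2k, which is 7.14% of the 28 against 20.3% of all features. Without overlap, Tgfb3 lay lower in STZ rats, against 10.3% of all features, and Bmp2k lay higher, against 10.1%. The log2 fold changes, STZ over control on this scale, had a median of −0.03 over the members and of 0.01 over all features, with 12 members above 0 and 16 below. Their median size was 0.22, against 0.29 over all features.

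**Figure D1:**
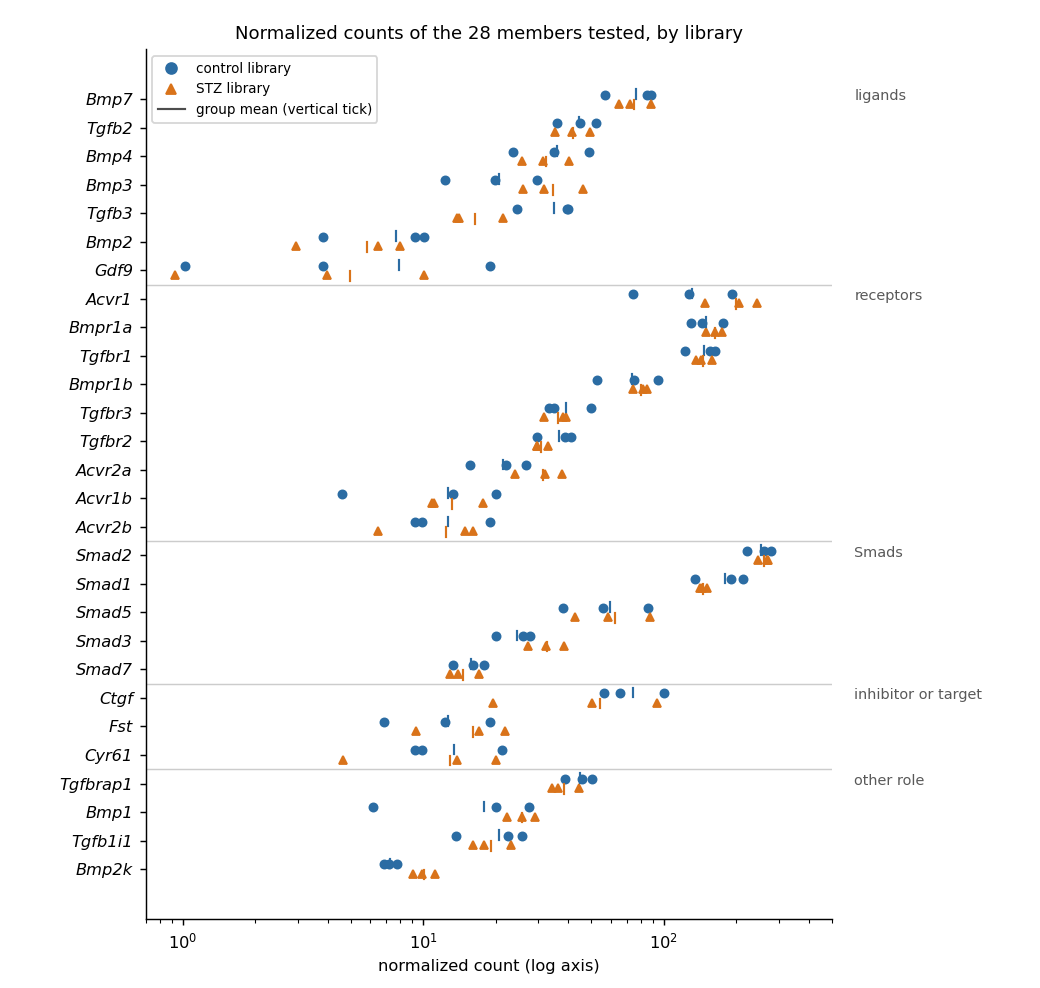
Normalized counts (log axis) of the 28 members tested, grouped by role, with a circle for each of the 3 control and a triangle for each of the 3 STZ libraries, and a vertical tick for each group mean. The circles and triangles of nearly every member intermingle, and Tgfb3 and Bmp2k are the members whose groups stand apart.

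The precision behind these results differed between members. The 95% interval of the log2 fold change lay within ±1, which leaves out a doubling or a halving in a single gene, for 14 of the 28 members, against 48.4% of all features. These were Bmp4, Bmp7 and Tgfb2 among the ligands, Bmpr1a, Bmpr1b, Tgfbr1, Tgfbr2 and Tgfbr3 among the receptors, Smad1, Smad2, Smad5 and Smad7, and Tgfb1i1 and Tgfbrap1. For the other 14 members the interval reached past a doubling, a halving or both, so that a change of that size in at least 1 direction was left within it. Standard errors ran from 0.18 for Smad2 to 0.99 for Gdf9.

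**Figure D2:**
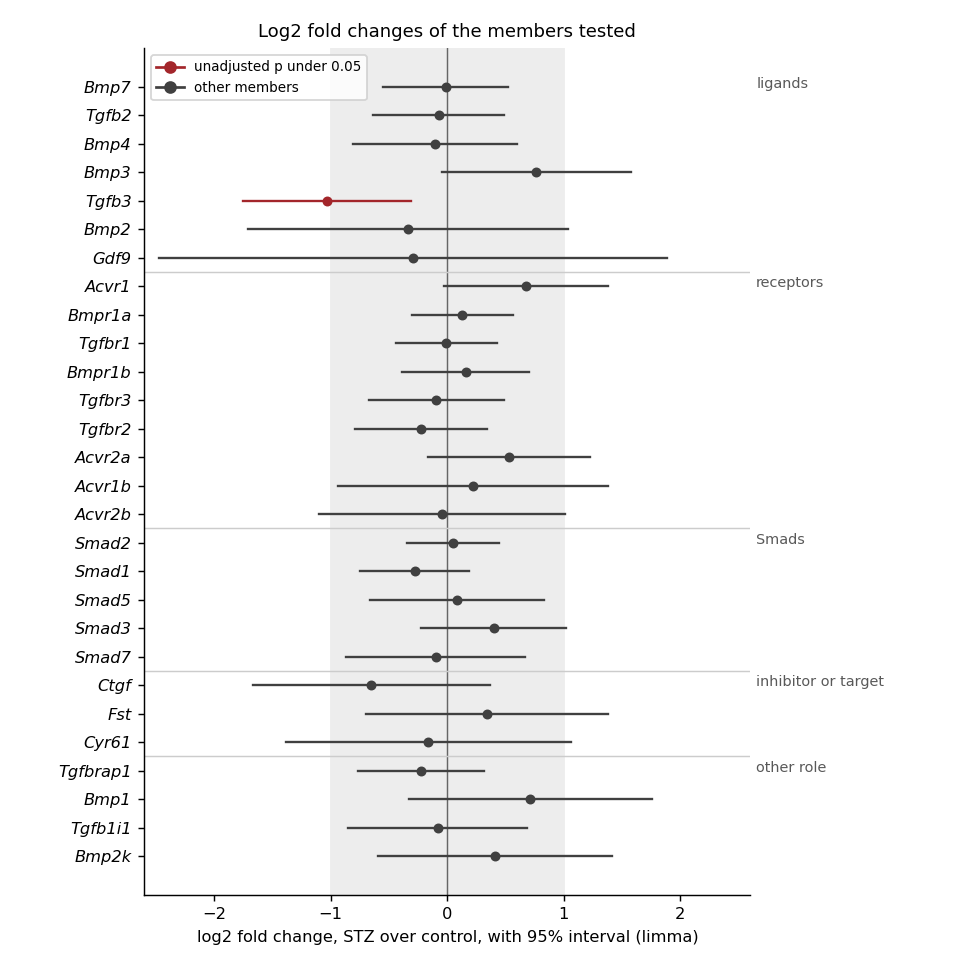
Log2 fold change (STZ over control) of each of the 28 members tested, as a point with its 95% interval by limma, grouped by role; the grey band spans −1 to 1. Every interval but that of Tgfb3 crosses 0, and that of Gdf9 is the widest.

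Tgfb3, a TGF-beta isoform that signals through Smad2 and Smad3, was the member with the lowest unadjusted p. On chromosome 6 of rn4 from 110173443 to 110195215, it measured 24.6, 39.7 and 40.1 normalized counts among control libraries and 21.4, 13.8 and 14.1 among STZ libraries. All 3 STZ values lay below all 3 control values, though control replicate 1 and STZ replicate 1 were close. Means came to 34.8 ± 8.81 and 16.4 ± 4.28 (± SD, n = 3 rats each), for a log2 fold change of −1.03 (standard error 0.33, 95% interval −1.75 to −0.31). The unadjusted p by limma was 0.00925 and the adjusted p 0.151, or 0.164 with edgeR and 0.182 with DESeq2. Over the 18 alternatives the adjusted p ran from 0.121 to 0.433 and the log2 fold change stayed between −1.26 and −0.88.

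The other TGF-beta isoforms in the table were Tgfb2 and Tgfb1. Tgfb2, on chromosome 13 from 102718707 to 102818939, measured 35.9, 45.003 and 52.3 normalized counts among control libraries and 35.3, 41.5 and 49.2 among STZ libraries. The groups overlapped almost fully, and the log2 fold change was −0.07 (standard error 0.26, 95% interval −0.64 to 0.49, adjusted p = 0.951 by limma). Tgfb1, the isoform most studied in fibrosis, on chromosome 1 from 80894704 to 80911019, measured at most 2 reads in any library and was under the olfactory receptor percentile in all 6. At this depth such a level is not distinguishable from background, and Tgfb1 was not compared. Whether the 3 isoforms differ in their response was not tested.

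Bmp3, a family member known to oppose the osteogenic BMPs, had the highest log2 fold change of the 28. On chromosome 14 from 12065634 to 12090295, its values were 29.7, 19.8 and 12.2 normalized counts among control libraries and 26.0, 31.7 and 46.2 among STZ libraries. Only control replicate 1 lay within the range of the STZ libraries. This gave a log2 fold change of 0.76 (standard error 0.37, 95% interval −0.05 to 1.58), with an adjusted p of 0.373 by limma, 0.388 with edgeR and 0.473 with DESeq2.

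Bmp7 had the most reads of the ligands, on chromosome 3 from 163723701 to 163799143. It had 85.1, 88.5 and 56.8 normalized counts among control libraries and 88.2, 72.2 and 65.3 among STZ libraries. Group means of 76.8 ± 17.4 and 75.2 ± 11.8 (± SD, n = 3 rats) lay closer together than replicates of either group, and the log2 fold change was −0.01 (standard error 0.24, 95% interval −0.55 to 0.52, adjusted p = 0.991 by limma). The interval corresponds to between 0.684 and 1.44 times the control level. Bmp4, which patterns the ureter and its mesenchyme in development, had 35.9 ± 12.7 and 32.5 ± 7.26 normalized counts (log2 fold change −0.10, 95% interval −0.81 to 0.60). Bmp2 was low, with 7.69 ± 3.38 and 5.83 ± 2.597 normalized counts, above the olfactory receptor percentile in 2 of 6 libraries (log2 fold change −0.34, standard error 0.62).

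Gdf9, known as an oocyte factor, passed the minimum mean through few libraries. It had 1.03, 3.81 and 18.9 normalized counts among control libraries and 0.929, 3.96 and 10.04 among STZ libraries. In both groups the highest Gdf9 value was in the library with the highest olfactory receptor percentile, and the lowest in that with the lowest; the part of background in it was not tested. Its adjusted p was 0.95 by limma.

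The remaining 14 ligands, Tgfb1 included, did not reach the minimum mean and were not compared. Bmp15 and Gdf11 had no read in any library. Bmp5, Bmp8a, Bmp10, Gdf1, Gdf10, Inhba, Inhbb and Inhbc had between 1 and 3 reads in their highest library, as Tgfb1 did with 2. Inhba and Inhbb code for the beta subunits from which activins A and B are built. Gdf3, Gdf15 and Inhbe reached 6, 5 and 4 reads in their highest library. Gdf15, a stress-induced circulating factor, had 2.04 ± 1.77 normalized counts in control rats against 3.21 ± 1.34 after STZ (± SD, n = 3). These values stayed near the floor in all 6 libraries.

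Ltbp2, a matrix protein of the latent TGF-beta binding family, had 1.03, 0.763 and 4.45 normalized counts among control libraries and 0, 4.95 and 13.1 among STZ libraries. Its mean stayed under the minimum, and it was above the olfactory receptor percentile in 1 library. A row named LTBP1_RAT, after the rat protein, was outside the name rule and was looked up after the table had been seen. It had 1082, 1416 and 1547 normalized counts among control libraries and 1399, 1448 and 1182 among STZ libraries. Both groups spanned nearly the same range, with a log2 fold change of 0.01 (standard error 0.20, 95% interval −0.43 to 0.44, adjusted p = 0.997 by limma).

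All 10 receptors had reads and 9 were tested. Acvr1, also known as ALK2, a type I receptor for BMPs and activins, had the most reads among them and the lowest unadjusted p of the receptors. On chromosome 3 from 40188461 to 40282425, it measured 127, 74.8 and 191 normalized counts among control libraries and 205, 244 and 149 among STZ libraries. STZ replicate 3 lay below control replicate 3, so the groups overlapped. On the log2 scale the fold change came to 0.67 (standard error 0.32, 95% interval −0.03 to 1.38), with an unadjusted p of 0.0589 and an adjusted p of 0.367 by limma. Over the alternatives its adjusted p reached 0.0956 with control replicate 3 left out and 0.809 at the other end, and its log2 fold change ran from 0.32 to 0.99. Acvr2a, an activin type II receptor, had 26.7, 22.1 and 15.6 normalized counts among control libraries and 24.1, 37.6 and 32.1 among STZ libraries (log2 fold change 0.53, standard error 0.32, adjusted p = 0.488). Its STZ values lay above those of control replicates 2 and 3, and STZ replicate 1 lay below control replicate 1.

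The receptors that TGF-beta itself binds had close values in both groups. Tgfbr1, the type I receptor, on chromosome 5 from 63976867 to 64034058, measured 156, 123 and 164 normalized counts among control libraries and 159, 142 and 136 among STZ libraries. Its log2 fold change was −0.01 (standard error 0.20), and the 95% interval of −0.44 to 0.42 allows for between 0.735 and 1.34 times the control level. Tgfbr2, the type II receptor, had 36.6 ± 6.06 and 30.8 ± 1.98 normalized counts (log2 fold change −0.23, 95% interval −0.80 to 0.34). Tgfbr3, or betaglycan, a co-receptor that presents TGF-beta2, had 39.3 ± 8.95 and 36.3 ± 4.05 (log2 fold change −0.09, 95% interval −0.67 to 0.48).

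The BMP type I receptors were likewise close in both groups. Bmpr1a, on chromosome 16 from 10061943 to 10092435, measured 129, 143 and 176 normalized counts among control libraries and 149, 174 and 164 among STZ libraries. The log2 fold change was 0.13 (standard error 0.20, 95% interval −0.30 to 0.56, adjusted p = 0.866 by limma). Bmpr1b had 74.0 ± 21.0 and 80.6 ± 5.72 normalized counts (log2 fold change 0.16, 95% interval −0.38 to 0.70). The activin receptors Acvr1b and Acvr2b were at 12.6 ± 7.75 and 13.2 ± 3.86, and at 12.7 ± 5.41 and 12.5 ± 5.20 normalized counts, with standard errors of the log2 fold change of 0.53 and 0.48. Acvr1c reached 5 reads in its highest library and was not tested.

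Smad2 had the most reads of the Smads and the narrowest error of all members. On chromosome 18 from 73180170 to 73242126, it measured 278, 260 and 223 normalized counts among control libraries and 268, 270 and 246 among STZ libraries. The STZ values lay inside the control range. This gave a log2 fold change of 0.05 (standard error 0.18, adjusted p = 0.954 by limma), and the 95% interval of −0.35 to 0.44 allows for between 0.787 and 1.36 times the control level. Smad3, its partner in TGF-beta signalling, on chromosome 8 from 67803913 to 67952056, measured 27.7, 25.9 and 20.04 normalized counts among control libraries and 32.5, 38.6 and 27.1 among STZ libraries. Only STZ replicate 3 lay within the control range, and the log2 fold change was 0.40 (standard error 0.28, 95% interval −0.22 to 1.02, adjusted p = 0.593).

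Among the BMP Smads, Smad1, on chromosome 19 from 30348885 to 30409344, measured 191, 135 and 213 normalized counts among control libraries and 150, 141 and 144 among STZ libraries. The control libraries spread more widely than the STZ libraries and enclosed them, and the log2 fold change was −0.28 (standard error 0.21, 95% interval −0.75 to 0.19, adjusted p = 0.632 by limma). Smad5 had 59.97 ± 24.3 and 62.8 ± 22.7 normalized counts (log2 fold change 0.08, standard error 0.34). Smad9 had at most 4 reads in any library and was not tested.

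The inhibitory Smads, which are themselves induced by the pathway and limit it, were low. Smad7, on chromosome 18 from 72294802 to 72323350, measured 13.3, 16.02 and 17.8 normalized counts among control libraries and 13.9, 12.9 and 17.1 among STZ libraries, above the olfactory receptor percentile in all 6. Its groups overlapped (log2 fold change −0.10, standard error 0.35, 95% interval −0.87 to 0.67, adjusted p = 0.953 by limma). Smad6 had at most 2 reads in any library. A row named SMAD4_RAT, for the common partner of the receptor Smads, was looked up after the table had been seen; it had 9.13 ± 3.66 and 10.9 ± 6.84 normalized counts (log2 fold change 0.09, standard error 0.58).

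The target genes Ctgf and Cyr61 code for matricellular proteins, Ctgf being a widely used readout of TGF-beta. Ctgf, on chromosome 1 from 21327101 to 21330215, measured 65.6, 56.4 and 100.2 normalized counts among control libraries and 19.5, 50.4 and 93.4 among STZ libraries. STZ replicates 1 and 2 lay below every control library and STZ replicate 3 did not. On the log2 scale the fold change came to −0.65 (standard error 0.46, 95% interval −1.67 to 0.36, adjusted p = 0.593 by limma), and it ran from −1.17 to −0.07 over the alternatives. Cyr61 had 9.23, 9.92 and 21.1 normalized counts among control libraries and 4.64, 13.8 and 20.1 among STZ libraries. As for Ctgf, its lowest value was in STZ replicate 1 and its highest values were in replicate 3 of both groups, the libraries with the highest olfactory receptor percentile of each group; the part of background in this was not tested. Fst, coding for follistatin, which traps activins, had 12.7 ± 6.04 and 16.04 ± 6.30 normalized counts (log2 fold change 0.34, standard error 0.47). Nog, coding for the BMP antagonist noggin, had no read.

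Of the rows with another role, Tgfbrap1, a vesicle tethering protein that binds TGF-beta receptors, had the most reads. It had 50.2, 45.8 and 39.0 normalized counts among control libraries and 34.4, 44.5 and 36.1 among STZ libraries (log2 fold change −0.23, standard error 0.24, adjusted p = 0.778 by limma). STZ replicate 2 lay inside the control range. Bmp1, the procollagen C-proteinase, which is not a BMP ligand, had 6.15, 27.5 and 20.04 normalized counts among control libraries and 22.3, 25.7 and 29.1 among STZ libraries. Control replicate 1 stood below the rest, with a log2 fold change of 0.71 (standard error 0.47, adjusted p = 0.563). Bmp2k, a kinase, had 7.18, 6.86 and 7.79 against 11.1, 9.89 and 9.03 normalized counts; the groups did not overlap, but each library had few reads and at most 12, and the log2 fold change was 0.41 (standard error 0.46, adjusted p = 0.788). Tgfb1i1, or Hic-5, a focal adhesion protein, had 20.6 ± 6.17 and 19.0 ± 3.73. A row that joins Bmp2k with its neighbour Paqr3 had at most 1 read.

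**Figure D3:**
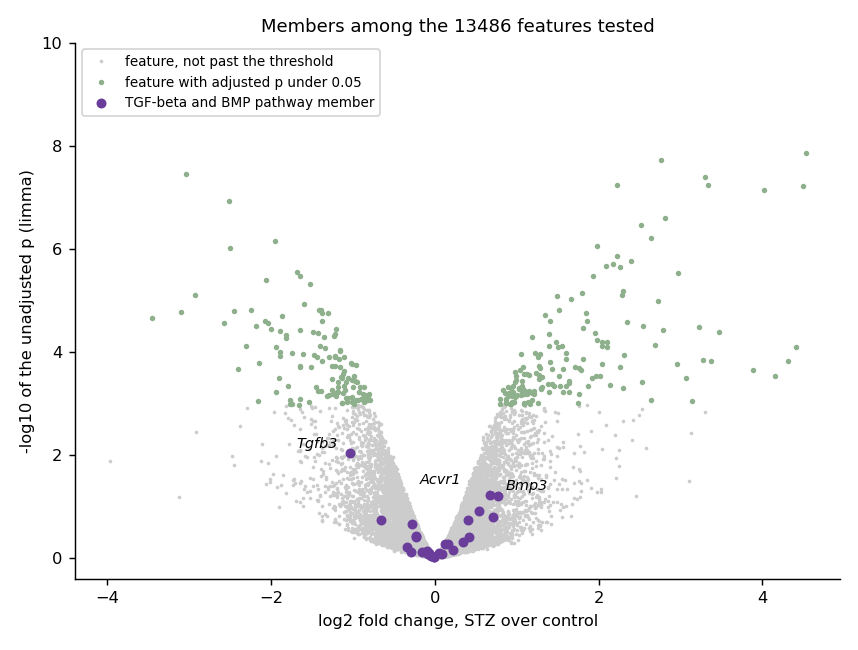
Log2 fold change (STZ over control) against −log10 of the unadjusted p by limma for all 13486 features tested; green points are the 283 features with an adjusted p under 0.05 and purple circles are the 28 pathway members. All purple circles lie under the green points, with Tgfb3 the highest of them.

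The promoters give the sequence context of the members that the values above describe. RefSeq sequences on the GRCr8 build, a later assembly than the rn4 of the counts, matched 39 of the 48 members by symbol or synonym, and the 250 bases before each annotated start were searched on both strands. The motif GGCGCC is a palindrome that BMP Smads are known to bind. It was found in 11 of the 39 (28.2%), against 8.69% of all 33469 promoters in the table. Among members tested it was in 7 of 22 (31.8%), against 15.9% of the 8009 promoters matched to features tested. The motif GTCTAGA, which holds the Smad3 half-site GTCT, was in 0 of the 39 against 1.86% of all promoters, and TGACTCA, the AP-1 site, in 1, that of Bmpr1a, against 4.05%. A match describes these letters only and is not evidence of binding. The promoters of Smad7, at chr18:71263258-71263507 on the plus strand, and of Tgfbr1, at chr5:66449148-66449397 on the plus strand, are shown because they hold GGCGCC, which is in capitals. That of Tgfb3, at chr6:111456947-111457196 on the minus strand, is shown because Tgfb3 had the lowest unadjusted p; none of the 3 motifs was in it.
Smad7: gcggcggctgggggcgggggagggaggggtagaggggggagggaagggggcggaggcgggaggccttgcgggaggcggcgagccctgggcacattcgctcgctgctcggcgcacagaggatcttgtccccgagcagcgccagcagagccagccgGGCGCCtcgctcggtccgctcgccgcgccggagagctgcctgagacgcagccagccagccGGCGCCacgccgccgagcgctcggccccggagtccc
Tgfbr1: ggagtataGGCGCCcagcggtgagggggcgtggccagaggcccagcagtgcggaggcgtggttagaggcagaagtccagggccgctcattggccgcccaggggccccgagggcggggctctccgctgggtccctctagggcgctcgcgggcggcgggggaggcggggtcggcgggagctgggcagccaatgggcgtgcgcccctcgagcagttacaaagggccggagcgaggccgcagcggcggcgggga
Tgfb3: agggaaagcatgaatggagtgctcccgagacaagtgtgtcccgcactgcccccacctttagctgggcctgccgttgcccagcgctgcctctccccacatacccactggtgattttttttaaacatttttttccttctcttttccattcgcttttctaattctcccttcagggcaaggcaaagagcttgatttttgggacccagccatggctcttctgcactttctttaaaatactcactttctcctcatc

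Genes of the pathway outside the name rule were taken from 7 lists of 99 genes in all, of which 77 were found in the table and 58 were tested. By limma, 3 of them were higher and 0 were lower in STZ rats at an adjusted p under 0.05, which is 5.17% of the 58. Of the 3, Postn passed the minimum mean only through its STZ libraries and so had to differ. Of all features tested, 1.17% were higher and 0.927% were lower. With edgeR and DESeq2 all 3 of these genes had an adjusted p under 0.05. Genes in more than 1 list were counted once, and the lists and their members were chosen with earlier results of these data known.

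Secreted inhibitors and modulators held 1 of the 3. It was Sostdc1, known in the kidney as USAG-1, an antagonist of Bmp7. On chromosome 6 from 55066276 to 55070453, it measured 2240, 1579 and 2905 normalized counts among control libraries and 5744, 8802 and 8673 among STZ libraries, without overlap. This gave a log2 fold change of 1.80 (standard error 0.27, 95% interval 1.21 to 2.40, adjusted p = 0.00794 by limma, and 0.106 at the most, without the intensity trend). Of the 9 genes tested in this list the other 8 did not pass, and the median log2 fold change of the 9 was 0.096, against 0.01 over all features. Among the 8, Tll1, a tolloid protease that cleaves the BMP antagonist chordin, had 14.4, 13.7 and 21.1 normalized counts among control libraries and 26.9, 39.6 and 57.2 among STZ libraries (log2 fold change 1.24, standard error 0.34, adjusted p = 0.101). Fstl1, a follistatin-like protein, was at 1430 ± 212 and 1505 ± 313. A row named GREM1_RAT, looked up after the table had been seen, had 86.1, 80.9 and 63.4 normalized counts among control libraries and 179, 94.95 and 115 among STZ libraries. Its STZ values all lay above its control values, as in 10.1% of all features. The log2 fold change was 0.71 (standard error 0.26, 95% interval 0.14 to 1.28, adjusted p = 0.218 by limma). Being outside the name rule, this row is not counted among the members.

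**Figure D4:**
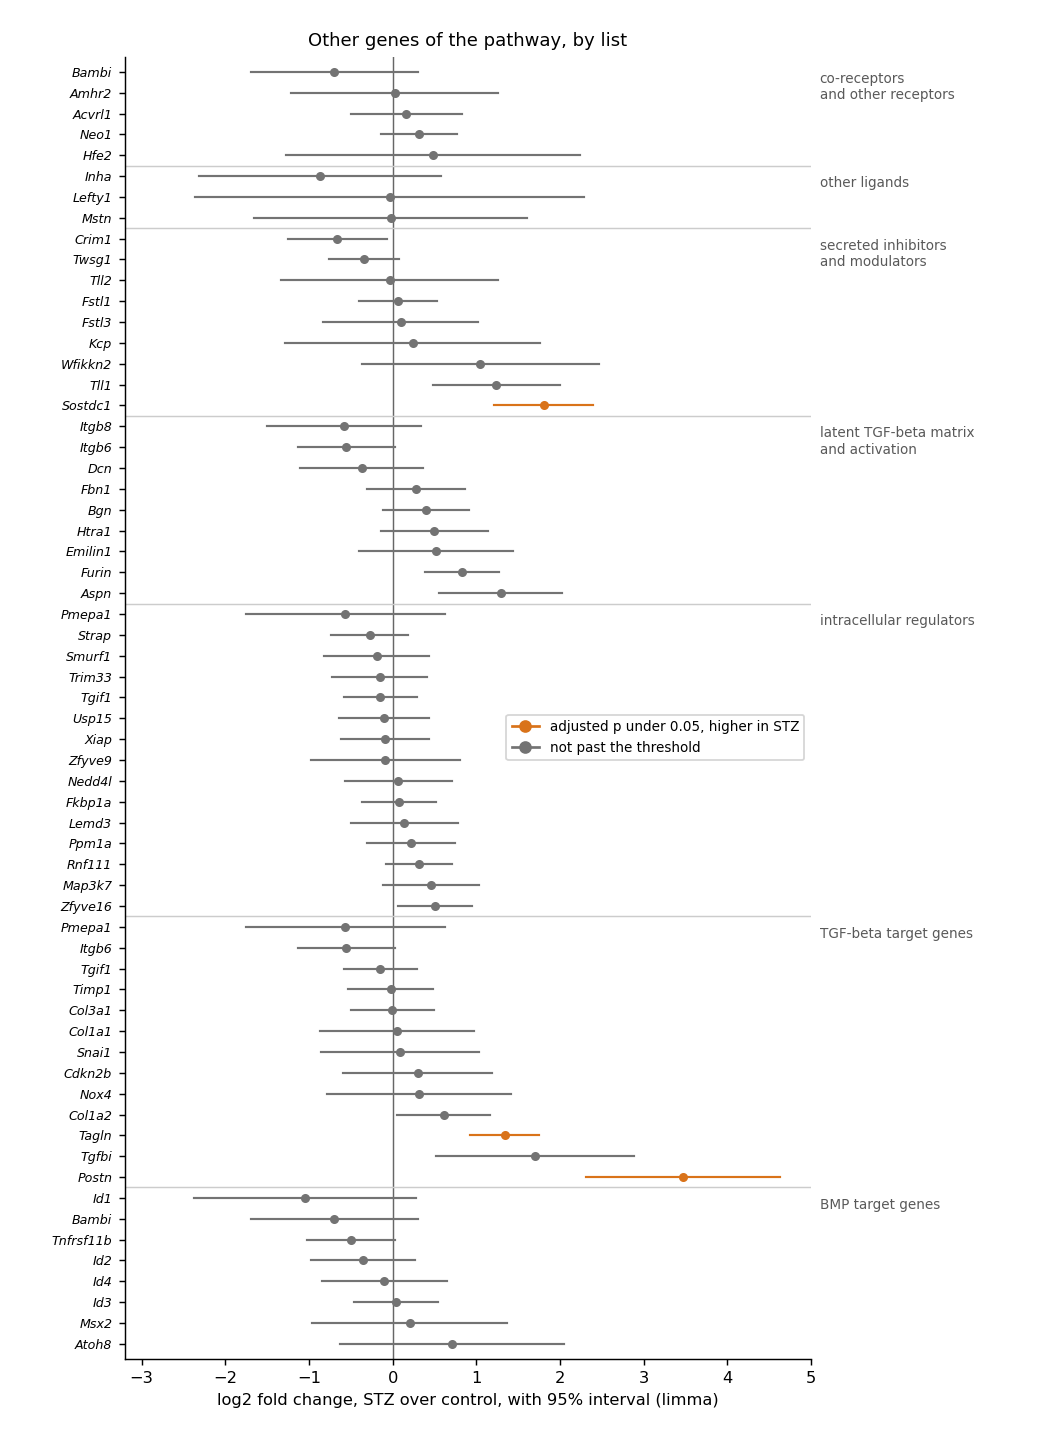
Log2 fold change (STZ over control) of the genes tested in the 7 pathway lists, as points with 95% intervals by limma; orange marks an adjusted p under 0.05 with a higher level in STZ, and grey the rest. The orange points are Sostdc1, Tagln and Postn, all to the right of 0; genes that stand in 2 lists are drawn in both.

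Of the 13 TGF-beta target genes tested, 2 passed the test, Tagln and Postn, both higher in STZ rats, and 0 were lower. Of all features tested, 1.17% were higher and 0.927% were lower. Postn entered the test only through its STZ libraries, so its pass is not used as support, which leaves Tagln. The median log2 fold change of the list was 0.088. Postn, coding for the matricellular protein periostin, on chromosome 2 from 143537098 to 143568341, measured 2.05, 0.763 and 3.34 normalized counts among control libraries, which is 2, 1 and 3 reads. After STZ it had 27.9, 42.5 and 24.1. The control mean of 2.05 was itself under the minimum of 5, and no control value exceeded the floor of 3 reads, so the gene was tested only because of its STZ libraries. With 97 reads against 6, the ratio of STZ to control was 16.7, with an exact 95% interval of 7.398 to 46.6 that covers counting error only. The adjusted p by limma was 0.00858, and 0.0953 with STZ replicate 2 left out; the fitted log2 fold change depends on the pseudocount and is not used as a size.

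Tagln, coding for the actin-binding protein transgelin of smooth muscle and myofibroblasts, on chromosome 8 from 48902208 to 48907693, measured 180, 252 and 233 normalized counts among control libraries and 546, 584 and 543 among STZ libraries. The groups were far apart compared with their spread (log2 fold change 1.34, standard error 0.19, 95% interval 0.93 to 1.75, adjusted p = 0.00576 by limma, and 0.084 without the intensity trend).

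The collagens of the list did not pass the test. Col1a1 had 28.3 ± 14.1 and 29.5 ± 14.9 normalized counts (log2 fold change 0.05, standard error 0.42), and Col3a1 had 88.6 ± 8.62 and 89.3 ± 18.2 (log2 fold change −0.01, standard error 0.23, 95% interval −0.50 to 0.49). Tgfbi, a matrix protein named for its induction by TGF-beta, had 6.15, 12.2 and 30.1 normalized counts among control libraries and 27.9, 39.6 and 85.3 among STZ libraries. Control replicate 3 lay above STZ replicate 1, and the log2 fold change of 1.70 with its standard error of 0.54 reached an adjusted p of 0.148. Without control replicate 3 the log2 fold change was 2.26 with an adjusted p of 0.0336 by limma, and without control replicate 1 it was 1.202 with 0.353.

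None of the 8 BMP target genes tested had an adjusted p under 0.05 by limma or edgeR, nor any of the 5 for which DESeq2 gave one, and 0 had an unadjusted p under 0.05 by limma. The median log2 fold change of the list was −0.23. Id1, the classical BMP target, had 41.0, 15.3 and 30.1 normalized counts among control libraries and 10.2, 4.95 and 35.1 among STZ libraries. STZ replicate 3 was above control replicates 2 and 3, and the log2 fold change was −1.05 (standard error 0.60, adjusted p = 0.476). It was −0.46 without STZ replicate 2 and −1.76 without STZ replicate 3. Id3 was at 175 ± 19.7 and 184 ± 49.7, and Atoh8 had 4.21 ± 1.06 and 7.70 ± 2.98 (log2 fold change 0.71, adjusted p = 0.685). The control mean of Atoh8 was under the minimum of 5, so Atoh8 was tested only because of its STZ libraries.

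The lists of receptors and co-receptors, of other ligands, of latent TGF-beta activation and of intracellular regulators held 0 called genes of 5, 3, 9 and 15 tested by limma. Furin, the protease that cleaves TGF-beta precursors, had 301, 322 and 292 normalized counts among control libraries and 669, 422 and 563 among STZ libraries, without overlap. Its log2 fold change was 0.83 (standard error 0.20), with an adjusted p of 0.0651 by limma, 0.0607 with edgeR and 0.00501 with DESeq2. Aspn, coding for asporin, a matrix protein that binds TGF-beta, had 107, 45.003 and 111 against 209, 252 and 152 normalized counts (log2 fold change 1.29, standard error 0.34, adjusted p = 0.083, 0.0107 with DESeq2 and 0.0449 without control replicate 3). Bambi, a decoy receptor, had 14.4 ± 4.503 and 8.51 ± 2.76 normalized counts (log2 fold change −0.70, adjusted p = 0.552), and Hfe2, or hemojuvelin, a BMP co-receptor, had 4.30 ± 3.07 and 6.94 ± 5.09 (log2 fold change 0.48, adjusted p = 0.88). The control mean of Hfe2 was under the minimum of 5, so Hfe2 was tested only because of its STZ libraries. The log2 fold changes of the other genes that led these lists were −0.87 for Inha, the inhibin alpha subunit, −0.04 for Lefty1, an inhibitor of Nodal, and −0.56 for Pmepa1 and 0.50 for Zfyve16, regulators of receptor Smads, with adjusted p-values from 0.264 to 0.996.

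**Figure D5:**
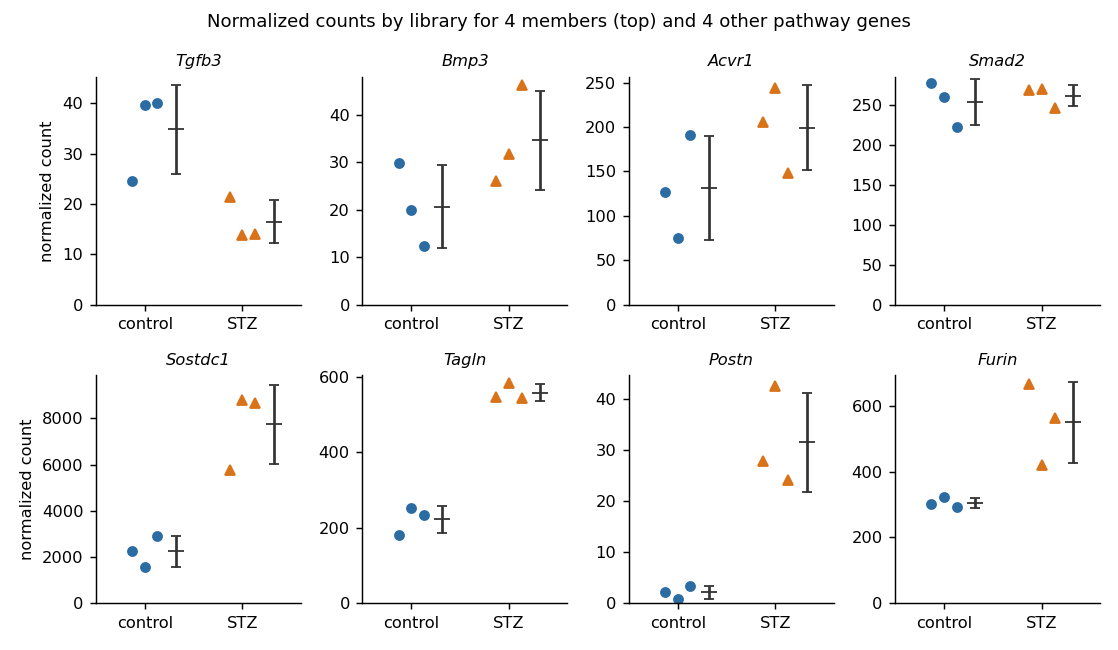
Normalized counts (linear axes from 0) in the 3 control libraries (circles) and the 3 STZ libraries (triangles) for the members Tgfb3, Bmp3, Acvr1 and Smad2 and for 4 other pathway genes, with the mean and SD of each group in black beside its points. Sostdc1, Tagln, Postn and Furin are higher in all 3 STZ libraries, Tgfb3 is lower, and the groups of Smad2 overlap.

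Markers of several cell types moved with the condition beside these genes. The summed markers of urothelium were higher in every STZ library (440 to 517 normalized counts against 85.4 to 132). Of the 5 urothelium markers tested, 2 were called, Upk3a and Upk1b. The smooth muscle sum was also higher (571 to 601 against 209 to 294), with 1 of 3 called, which is Tagln itself. Tagln made up most of that sum, and the median log2 fold change of the 3 was −0.23. Of all features tested, 2.1% were called and 20.3% did not overlap between the groups. Sums were lower in every STZ library for intercalated cells (459 to 531 against 1150 to 2607, 4 of 5 called), thick ascending limb (210 to 597 against 1099 to 1886, 2 of 3 called), proximal tubule (54.4 to 114 against 189 to 346, 1 of 3 called) and endothelium (3842 to 4217 against 7039 to 9108, with Emcn and Plvap lower and Vwf higher of 6). The fibroblast and pericyte sum overlapped (5012 to 11172 in STZ against 7661 to 9334 in control libraries), while its markers Pdgfra and Cspg4 rose, 2 of 8 tested. The sums of macrophage, lymphocyte, podocyte, blood, thin limb and collecting duct markers overlapped between the groups, with 0 markers called by limma; Ms4a1 and Synpo were at or under 3 reads in all 6 libraries. The part of these cell types in the levels of Sostdc1, Postn, Tagln and Tgfb3 was not tested.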

How the data were processed

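The authors mapped their reads with STAR 2.3.1t onto rn4, kept those with a unique position, and scaled the gene counts by DESeq 1.16.0 size factors, as the submitters' processing notes and methods state. The deposited signal is thus a normalized count for each of 27321 features. Which program counted, and whether strand was used, are not given in the sources used here, and overlapping or antisense genes may share reads. The recovery of whole reads succeeded for 100.0% of values in every library (multiples of 1 step within 0.001 reads). By the labels each library is a separate rat, and p-values measure the spread between these rats.

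STZ minus control was tested without covariates by limma 3.58.1 (R 4.3.3), with its intensity trend, after a log2(normalized count + 1) transform of the 13486 features whose mean reached 5. P-values were adjusted over all features by the Benjamini-Hochberg procedure at a threshold of 0.05, and 95% intervals are those of limma for single genes. A log2 fold change on this scale understates the change of low genes. As alternatives, the pseudocount was set to 0.5 and 5, the minimum mean to 1, 20 or none, and the fit was repeated with quantile normalization, equal library totals, limma without trend or with robust moderation, edgeR 4.0.16 (quasi-likelihood, TMM) and DESeq2 1.42.0 on the recovered reads, the replicate number as a block, and each library left out. The methods were tested on simulated data. Figures were drawn with matplotlib 3.10.9 in Python 3.11.15, and intervals of counts computed with scipy 1.17.1.

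Members and lists were chosen with earlier results of these data known. Library values are given for members past the threshold, members without overlap and a log2 fold change of at least 0.5 in size, and the member of each role with the most reads; other members given by library, and the 3 rows named after proteins, were chosen after their values were seen. Of each list, genes past the threshold and those with the largest changes are named, with Fstl1, Col1a1, Col3a1 and Id3 added after values were seen. Acta2 was not analysed here. Another member and some genes of the lists are not reported here and stay out of the counts of members and lists. Since values are not per transcript length, levels are not ranked between genes.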

Additional observations from a re-analysis of the deposited data

How the results depend on the processing

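The number of members with an adjusted p under 0.05 was 0 under all 18 alternatives, and it was 0 with each of the 6 libraries left out in turn, when the smallest adjusted p of a member was 0.0956. The number of genes called in the pathway lists was 3, all higher. Of these 3, Postn entered the test only through its STZ libraries and is not used as support. The counts in this section keep Postn wherever it was called. The number was 5 without a filter and with DESeq2. It was 1, which was Postn, for limma without the intensity trend, which called 31 of all features against 283. Over all features, quantile normalization called 522, DESeq2 597, and fits with a library left out 86 to 341. With each library left out, between 2 (without STZ replicate 2) and 5 (without control replicate 3) pathway genes were called, all higher.

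Replicate numbers 1 to 3 occur in both groups, and the labels do not say whether same-numbered libraries share a batch. The deviations of same-numbered libraries from their group means correlated with r = 0.395, −0.061 and 0.323 for replicates 1, 2 and 3. Between libraries of different number r ran from −0.472 to 0.220. These values are across 9315 features, which are not independent replicates. A shared batch was not tested, and the main fit took no pairs. With the replicate number as a block, 0 members and 6 pathway genes were called, all higher (Sostdc1, Postn, Tagln, Furin, Tgfbi with an adjusted p of 0.0121 and Tll1 with 0.0423), among 561 features of all.

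The median log2 fold change with a library left out ran from −0.064 to 0.26 over the receptors, from −0.26 to 0.010 over the ligands, from −0.56 (without STZ replicate 3) to 0.39 (without STZ replicate 1) over the 3 inhibitor and target genes, from 0.060 to 0.27 over the rows with another role, from −0.18 to 0.12 over the Smads and from −0.085 to 0.089 over all members tested. The receptors were lowest without control replicate 2 and the Smads without STZ replicate 3. Of the 28 members, 15 changed the sign of their log2 fold change in at least 1 alternative and 13 did not. Among the genes given by library, signs turned for Bmp7 (−0.21 to 0.10) and Smad2 (−0.041 to 0.12), among others, with a library left out. The sign also turned for Lefty1 with a pseudocount of 5 (0.20), quantile normalization (0.19), edgeR (0.85), DESeq2 (0.88) and a library left out (−0.33 to 1.05); none of these genes was called. The cause was not tested. The median log2 fold change of all features stayed between −0.02 and 0.04. With 3 rats a group, both a doubling and a halving lay outside the interval for 14 of the 28 members, against 48.4% of all features.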
